A study of Mus musculus with 8 samples.

Results

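Milk proteins and secretory products of the mammary gland were followed in D2A1 mouse mammary carcinoma cells and in D2A1-m1 and D2A1-m2, the sublines selected from them for metastasis. The members were 10 genes, taken as every probe of the deposited signal table whose annotation carries the symbol of a member, out of 19057 genes that a probe names. They were the caseins Csn1s1, Csn2 and Csn3, the whey proteins Wap and Lalba, the whey-type protease inhibitors Wfdc2 and Slpi, the iron-carrier binding protein Lcn2, and Mfge8 and Btn1a1 of the milk fat globule. Of these 10 genes, 5 had a probe detected on at least 1 array and could be tested among 9017 genes.

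RNA was taken from 2 cultures of D2A1-m1, 3 of D2A1-m2 and 3 of D2A1, described in the study as independent biological replicates, and hybridised to Illumina bead arrays of mouse genes in 2 batches. Batch 1 held D2A1-m1 replicate 1, D2A1-m2 replicate 1 and D2A1 replicates 1 and 2, and batch 2 held D2A1-m1 replicate 2, D2A1-m2 replicates 2 and 3 and D2A1 replicate 3. Both sublines came from BALB/c-derived D2A1 cells that were grown in the mammary fat pad of a mouse, recovered from its lungs and then passed repeatedly through the tail vein and lungs of further mice. Each passage used a single animal, so D2A1-m1 and D2A1-m2 are each 1 selected population and the replicates are cultures of it, not repeats of the selection. All cells were profiled in culture, in medium with foetal bovine serum, and no line carried a transgene or a drug treatment in the labels of these arrays.

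Casein genes are switched on in the secretory alveolar cell late in pregnancy, when prolactin acts through its receptor, JAK2 and STAT5 together with glucocorticoid and contact with the basement membrane. Caseins assemble into micelles that carry calcium phosphate, with kappa-casein, the product of Csn3, on the micelle surface, while Lalba turns a galactosyltransferase into lactose synthase. The whey-type inhibitors and Lcn2 are also made outside lactation by many epithelia and by inflammatory cells, so they are not milk genes in the strict sense.

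On the arrays, 13618 and 14625 probes were detected in D2A1-m1, 13768 to 14942 in D2A1-m2 and 13419 to 14387 in D2A1, where a probe counts as detected at a detection p of at most 0.01, which sets its signal against beads that match no mouse gene. The lowest signal of any detected probe was 71.4 to 77.1 over the arrays, and with 2 or 3 arrays a line their number limits how precise a value can be. Mammary epithelial markers gave a mixed picture of the labelled origin. Of 17 such markers, 10 were undetected on all arrays, among them Epcam, Cdh1, Krt5, Krt14, Elf5 and Esr1, whereas Krt8 and Krt18 were detected on every array. The summed background-corrected intensity of the epithelial markers was 964 to 1339 in D2A1-m1, 948.8 to 1279 in D2A1-m2 and 561.8 to 657.9 in D2A1, and the part of such differences between the lines in the results below was not tested. The difference in the sum lay with Krt8, which was called higher in D2A1-m1 (log2 change 3.03) and in D2A1-m2 (3.26), while Krt18 fell by 1.00 on the log2 scale in D2A1-m2 and was called lower there. Over the 7 tested markers the median log2 change was -0.07 in D2A1-m1 and -0.12 in D2A1-m2.

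Most of the milk proteins were undetected on these arrays. Csn1s1, encoding alpha-S1-casein, was undetected with its 3 probes on all 8 arrays, and so were Csn2, encoding beta-casein, Wap, the major whey protein of rodents, Lalba and Lcn2. Over the 56 values of these genes the signals ran from 39.8 to 68.8, below the lowest detected signal of any array. Csn2 had signals of 48.3 and 51.8 in D2A1-m1, 50.8, 46.8 and 51.5 in D2A1-m2, against 46.4, 42.3 and 47.6 in D2A1. Wap had 49.8 and 53.2 in D2A1-m1, 43.5, 48.8 and 51.9 in D2A1-m2, against 43.9, 52 and 45.4 in D2A1. Lalba had 52.7 and 58 in D2A1-m1, 60.9, 53 and 56.7 in D2A1-m2, against 59.6, 55 and 53.4 in D2A1. Wap and Lalba overlapped between all lines, while the D2A1-m1 signals of Csn2 lay just above those of D2A1, every value being one that its array did not detect.

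**Figure D1:**
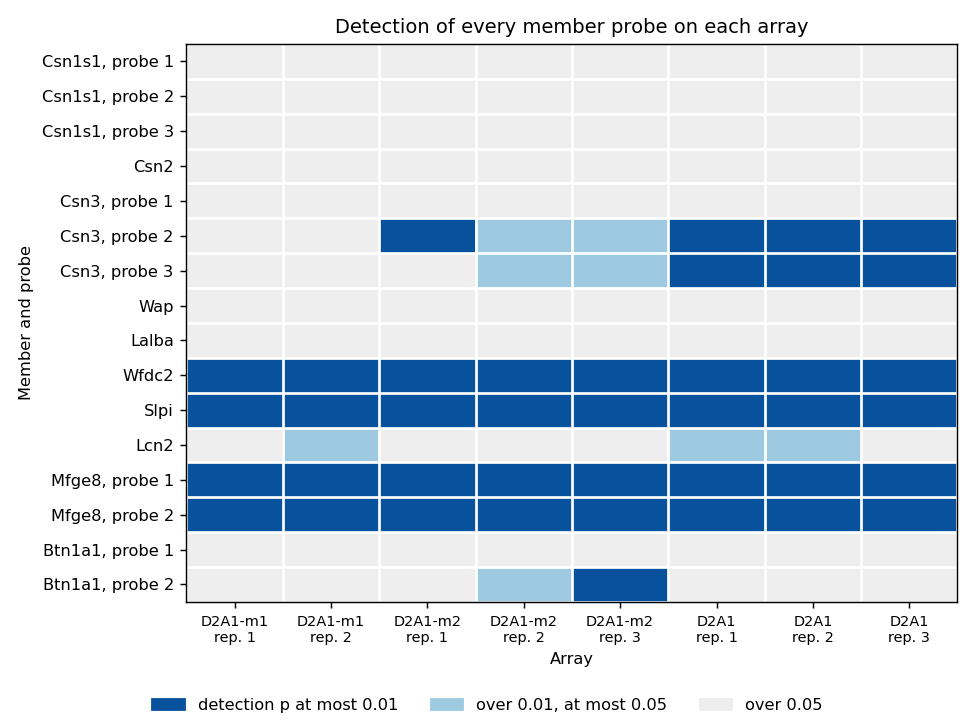
Detection of the 16 probes of the 10 members (rows) on the 8 arrays (columns, D2A1-m1, D2A1-m2 and D2A1). Dark cells mark a detection p of at most 0.01, pale blue cells a p over 0.01 and at most 0.05, and grey cells a higher p. Wfdc2, Slpi and Mfge8 are dark on every array, and Csn3 is dark in D2A1 with 2 of its 3 probes.

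The promoters of both undetected caseins are shown because they hold the site through which STAT5 is known to act on milk genes, beside those of Slpi and Wfdc2, the inhibitors that changed. The window runs from 250 bases before to 50 after the gene's start (RefSeq, GRCm38.p6), and capitals mark the STAT motif TTCNNNGAA, which reads the same on both strands. Csn1s1 lies at chr5:87665958-87666257, plus strand, Csn2 at chr5:87699376-87699675, minus strand, Slpi at chr2:164356458-164356757, minus strand, and Wfdc2 at chr2:164562465-164562764, plus strand.
Csn1s1: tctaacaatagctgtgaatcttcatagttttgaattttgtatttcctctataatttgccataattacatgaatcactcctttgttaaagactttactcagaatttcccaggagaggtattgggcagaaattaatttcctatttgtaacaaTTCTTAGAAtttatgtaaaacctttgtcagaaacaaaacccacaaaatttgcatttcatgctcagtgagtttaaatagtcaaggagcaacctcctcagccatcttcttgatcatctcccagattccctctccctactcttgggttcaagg
Csn2: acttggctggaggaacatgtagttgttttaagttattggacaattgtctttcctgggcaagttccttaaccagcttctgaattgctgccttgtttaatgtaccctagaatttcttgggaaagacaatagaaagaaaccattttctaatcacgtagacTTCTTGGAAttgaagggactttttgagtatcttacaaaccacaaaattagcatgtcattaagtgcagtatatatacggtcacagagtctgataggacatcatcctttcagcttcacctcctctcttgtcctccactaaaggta
Slpi: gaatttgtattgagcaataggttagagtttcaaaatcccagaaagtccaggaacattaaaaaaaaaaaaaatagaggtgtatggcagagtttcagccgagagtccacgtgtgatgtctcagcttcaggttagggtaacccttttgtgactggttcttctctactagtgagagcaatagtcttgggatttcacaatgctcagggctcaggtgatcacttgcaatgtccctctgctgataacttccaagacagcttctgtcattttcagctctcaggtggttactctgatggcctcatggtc
Wfdc2: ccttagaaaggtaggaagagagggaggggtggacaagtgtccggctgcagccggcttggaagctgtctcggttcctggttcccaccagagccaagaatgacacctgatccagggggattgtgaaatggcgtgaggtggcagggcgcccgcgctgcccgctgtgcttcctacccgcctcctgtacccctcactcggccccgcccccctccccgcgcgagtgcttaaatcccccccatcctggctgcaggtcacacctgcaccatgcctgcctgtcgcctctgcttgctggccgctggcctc
The motif began 100 bases before the start of Csn1s1 and 93 bases before that of Csn2. Slpi and Wfdc2 had no match, and neither did Wap, Lalba, Lcn2 and Mfge8, the other members with a promoter in the table, which held 8 of the 10. Csn3 and Btn1a1 had no promoter there, so the only detected casein was not searched. Sites outside the window were not looked for in any gene. Of 32851 promoters of this length, 8.3% held the motif.

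Csn3 was the exception among the caseins. Its probe of largest interquartile range had signals of 58.2 and 57.9 in D2A1-m1, 78, 70.9 and 72.1 in D2A1-m2, against 269.7, 204.7 and 431.3 in D2A1. All D2A1 arrays lay far above every subline array, and the D2A1-m1 arrays lay below those of D2A1-m2. The probe was detected on 0 of 2 D2A1-m1 arrays, 1 of 3 D2A1-m2 arrays (replicate 1) and 3 of 3 D2A1 arrays. On the normalized log2 scale Csn3 averaged 4.56 ± 0.03 in D2A1-m1 (SD, n = 2), 5.19 ± 0.22 in D2A1-m2 and 8.12 ± 0.44 in D2A1 (SD, n = 3 each). It was at least 7.36-fold lower in D2A1-m1 than in D2A1, the fold being a bound because no D2A1-m1 array detected it (log2 change -3.57, standard error 0.24, adjusted p = 1.60e-05). It was 7.76-fold lower in D2A1-m2, where 1 of 3 arrays detected it, than in D2A1 (log2 change -2.96, standard error 0.22, adjusted p = 3.25e-05). The size depended on the scale, although limma called Csn3 on each. Without background correction the log2 change was -2.48 in D2A1-m1 and -2.16 in D2A1-m2. On the authors' processed values it was -1.32 and -1.19, which is 2.50-fold and 2.28-fold, so that the folds above hold for the background-corrected scale alone. Here and below, adjusted p-values come from limma over all tested genes, with terms for line and batch, and a gene was called changed at an adjusted p under 0.05 and at least 1.5-fold.

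Csn3 stood at rank 4 from the lowest of 9017 changes in D2A1-m1 and at rank 5 in D2A1-m2. For D2A1-m1 its log2 change was -3.33 within batch 1 and -4.00 within batch 2, and for D2A1-m2 -2.46 and -3.48. Both contrasts use the same D2A1 arrays, so the values of the sublines are not independent of each other. Between D2A1-m1 and D2A1-m2 the log2 change of Csn3 was -0.62 (95% interval -1.15 to -0.08, adjusted p = 0.181), and this difference did not pass. In bulk RNA, fewer cells with the transcript and less transcript per cell cannot be told apart.

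A second Csn3 probe had signals of 50.6 and 55.9 in D2A1-m1, 61.5, 70.5 and 68.7 in D2A1-m2, against 170.6, 147.4 and 373.2 in D2A1. It was undetected in both sublines and detected on every D2A1 array, which bounds the difference. Against D2A1 it was lower by at least 5.10-fold in D2A1-m1 (adjusted p = 2.24e-05). In D2A1-m2 the bound was 5.31-fold (adjusted p = 2.89e-05). The third Csn3 probe was undetected everywhere, at 55.7 to 62.6, so that the probes of the gene disagreed in D2A1. At the looser detection p of 0.05, the first probe was detected on 3 of 3 D2A1-m2 arrays and the second on 2, while D2A1-m1 stayed at 0 of 2 with both.

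Csn3 lies at the end of the casein cluster of chromosome 5. From Csn1s1 to Csn3 the annotation places 8 coding genes, of which 7 had a probe. Csn3 was the only 1 of these 7 detected on any array, the other casein genes Csn1s2a and Csn1s2b and the enamel-associated gene Odam being undetected on all 8. The 619 tested genes of chromosome 5 had a median log2 change of 0.10 in D2A1-m1 and 0.03 in D2A1-m2.

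Wfdc2, also known as HE4, is a small secreted protein with whey acidic protein domains and was bright on all arrays. Its signals were 6567.3 and 7102.8 in D2A1-m1, 4982.9, 5886.1 and 4992.3 in D2A1-m2, against 14588.2, 12563.8 and 17985.6 in D2A1. The lines did not overlap, with D2A1 highest and D2A1-m2 lowest. Wfdc2 fell by 1.24 on the log2 scale in D2A1-m1 against D2A1 (standard error 0.16, adjusted p = 0.000735), which is 2.36-fold. In D2A1-m2 against D2A1 it fell by 1.66 (standard error 0.14, adjusted p = 8.46e-05), which is 3.16-fold. For D2A1-m1 the change was -1.09 within batch 1 and -1.48 within batch 2, and for D2A1-m2 -1.46 and -1.89. A fit to batch 1 alone did not call it in D2A1-m1 (adjusted p = 0.0862). Between D2A1-m1 and D2A1-m2 it was 0.42 (95% interval 0.07 to 0.77, adjusted p = 0.168) and did not pass.

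Slpi, a secreted inhibitor of neutrophil elastase and related proteases, was detected on all arrays as well. Its signals were 350.6 and 416.7 in D2A1-m1, 203.3, 215.1 and 157 in D2A1-m2, against 746.4, 406.6 and 657.1 in D2A1. D2A1-m2 lay below every array of the other lines, while D2A1-m1 replicate 2 lay just above D2A1 replicate 2 in signal. After normalization Slpi averaged 8.34 ± 0.01 in D2A1-m1 (SD, n = 2), 7.19 ± 0.43 in D2A1-m2 and 9.27 ± 0.49 in D2A1 (SD, n = 3 each), and no lines overlapped. In D2A1-m2 against D2A1 it fell by 2.00 on the log2 scale, 4.01-fold (standard error 0.27, adjusted p = 0.00088), with -1.74 and -2.21 within batches 1 and 2. On the authors' processed values the change was -1.24, or 2.36-fold (adjusted p = 0.00227), and with batch 1 alone it missed the threshold (adjusted p = 0.0982).

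In D2A1-m1 against D2A1 the log2 change of Slpi was -0.89 (standard error 0.29, 95% interval -1.53 to -0.24, adjusted p = 0.0536), which missed the threshold, with -0.96 and -0.86 within batches 1 and 2. Without D2A1 replicate 2 it was -1.15 (adjusted p = 0.00567) and passed. The difference between D2A1-m1 and D2A1-m2 was itself tested and was 1.12 (standard error 0.29, 95% interval 0.47 to 1.76, adjusted p = 0.0607), higher in D2A1-m1 but not past the threshold. Without D2A1 replicate 1 and without D2A1 replicate 2 this difference passed, at 1.14 (adjusted p = 0.0353) and 1.09 (adjusted p = 0.0137).

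**Figure D2:**
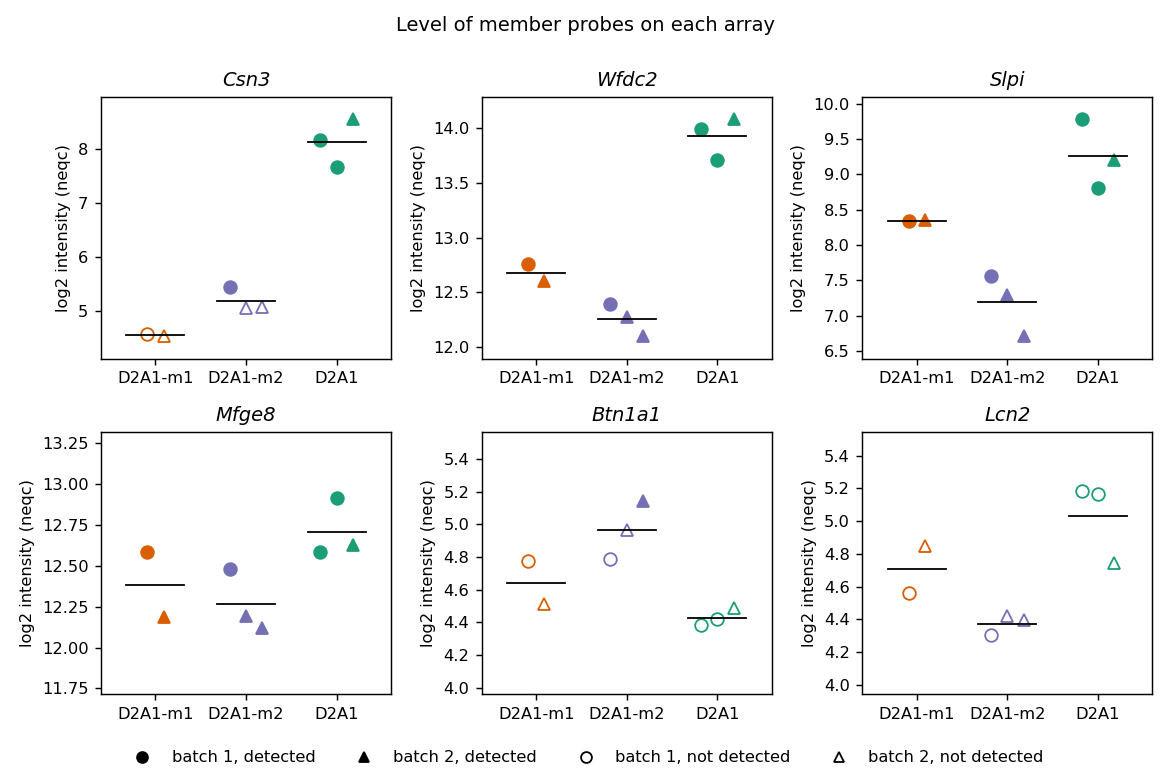
Normalized log2 intensity (vertical axis, a different range in each panel) of the probe used for 6 members on the arrays of D2A1-m1, D2A1-m2 and D2A1. Points are arrays, circles of batch 1 and triangles of batch 2, open where the probe was undetected, and bars are line means. Csn3, Wfdc2 and Slpi lie highest in D2A1, and Lcn2 is open throughout.

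Mfge8, or lactadherin, links phosphatidylserine on dying cells and on milk fat globules to integrins, and was bright in all lines. Its probe used had signals of 5861.2 and 5516.9 in D2A1-m1, 5262.4, 5529.8 and 5050.5 in D2A1-m2, against 4958.1, 6721.8 and 6685.8 in D2A1. The lines overlapped, since D2A1 replicate 1 had the lowest signal of all 8 arrays. The log2 change was -0.28 in D2A1-m1 (95% interval -0.60 to 0.04, adjusted p = 0.187) and -0.35 in D2A1-m2 (95% interval -0.65 to -0.06, adjusted p = 0.073) against D2A1, and 0.07 between D2A1-m1 and D2A1-m2 (95% interval -0.24 to 0.39, adjusted p = 0.82). A second probe gave -0.05, -0.32 and 0.27 in the same comparisons, and none of these passed. The lower ends of the intervals against D2A1 reach 1.5-fold but not the size of change seen for Wfdc2.

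Btn1a1, the butyrophilin that binds xanthine oxidoreductase in milk fat globule secretion, was at the edge of detection. The probe used had signals of 63.4 and 57 in D2A1-m1, 63.4, 68.4 and 74.2 in D2A1-m2, against 49.5, 51.6 and 54.3 in D2A1, and it was detected only on the array of D2A1-m2 replicate 3. All D2A1 arrays lay below those of both sublines. In D2A1-m2 the log2 change against D2A1 was 0.52 (adjusted p = 0.0203), under 1.5-fold and so not called, and in D2A1-m1 it was 0.20 (adjusted p = 0.345). No fold is given because D2A1 did not detect it. The second Btn1a1 probe was undetected everywhere, at 49.2 to 57.3.

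Lcn2 binds siderophores and is induced by inflammatory signals through NF-kB. Its signals were 57.7 and 66.2 in D2A1-m1, 47.8, 53.4 and 52.8 in D2A1-m2, against 68.3, 68.8 and 61 in D2A1. The D2A1-m2 arrays were the lowest, and the D2A1-m1 and D2A1 arrays overlapped. The lowest detection p of its probe was 0.0182, in D2A1 replicate 1, and at a limit of 0.05 it was detected on 1 of 2 D2A1-m1 arrays, 0 of 3 D2A1-m2 arrays and 2 of 3 D2A1 arrays. With no filter on detection Lcn2 was called lower in D2A1-m2 than in D2A1, at -0.65 (adjusted p = 0.0356), a difference between values at background for which no fold is given.

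Counted together, 2 of the 10 members, or 2 of the 5 that could be tested, were called in D2A1-m1 against D2A1, both lower, where 14.6% of all tested genes were called, 7.72% higher and 6.84% lower. In D2A1-m2 against D2A1, 3 of the 10, or 3 of the 5 tested, were called, all lower, beside 16.2% of all tested genes, 8.87% higher and 7.34% lower. Between D2A1-m1 and D2A1-m2, 0 members were called by limma, although 3 of the 5 tested had an unadjusted p under 0.05, as had 20.7% of all tested genes. Of all tested genes 4.27% were called, 2% higher in D2A1-m1 and 2.27% lower. The 5 tested members had a median log2 change of -0.89 in D2A1-m1, -1.66 in D2A1-m2 and 0.07 between D2A1-m1 and D2A1-m2, against medians of 0.01, -0.00 and 0.01 over all tested genes. With so few members a share of this kind describes the list and no more.

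**Figure D3:**
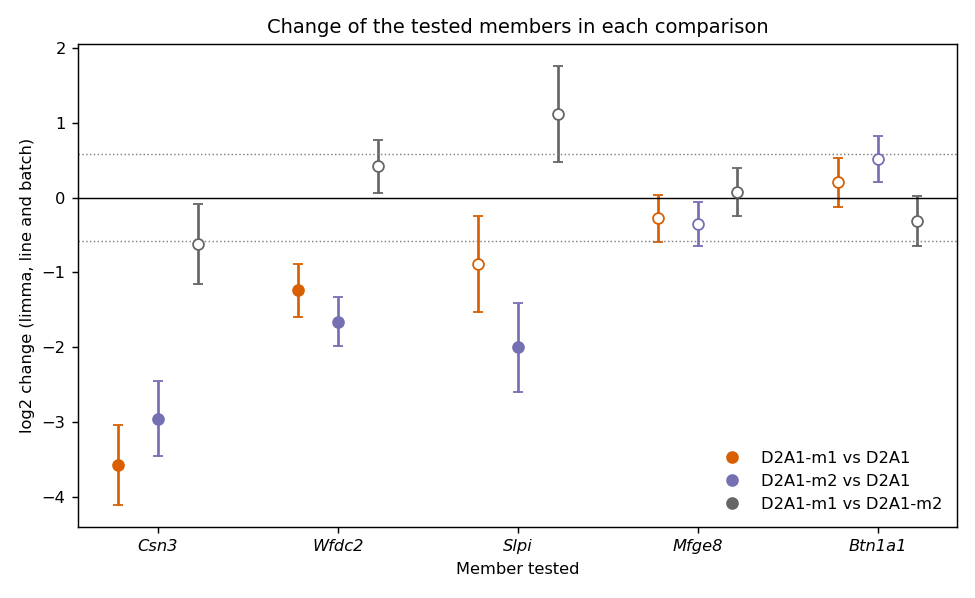
Log2 change (vertical axis) of the 5 tested members in each subline against D2A1 and between the sublines (D2A1-m1 over D2A1-m2). Bars are 95% intervals from limma, filled points were called, and dotted lines mark 1.5-fold. The filled points are Csn3 and Wfdc2 in both sublines and Slpi in D2A1-m2, all below 0.

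Slpi and Wfdc2 lie on chromosome 2 with other genes between them, in a wider locus that holds many genes with whey acidic protein domains. This stretch and its surroundings were examined after the values of both genes had been seen. From Slpi to Wfdc2 the annotation places 9 coding genes, of which 6 were tested, and the others between them were the membrane proteoglycan gene Sdc4, Sys1, Dbndd2 and Pigt. In D2A1-m2 against D2A1, 5 of these 6 were called lower, with Dbndd2 at -1.15, Sys1 at -0.69, Sdc4 at -0.60 and Pigt, which was not called, at -0.10. In D2A1-m1 against D2A1, 2 of the 6 were called lower, Wfdc2 and Dbndd2 (-0.62). Without any 1 of several arrays, the calls of Sdc4 (-0.66 to -0.44) and Sys1 (-0.74 to -0.58) in D2A1-m2 and of Dbndd2 (-0.62 to -0.56) in D2A1-m1 were lost, among them D2A1 replicate 3 for all 3 genes. On the authors' processed values these calls were lost too, and without background correction those of Sdc4 and Sys1 were. Among the 10 tested genes nearest on each side, 4 before and 5 after the stretch were called lower in D2A1-m2 and 0 and 3 in D2A1-m1, and 0 were called higher in either subline. Genes outside the stretch were thus among those called lower.

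**Figure D4:**
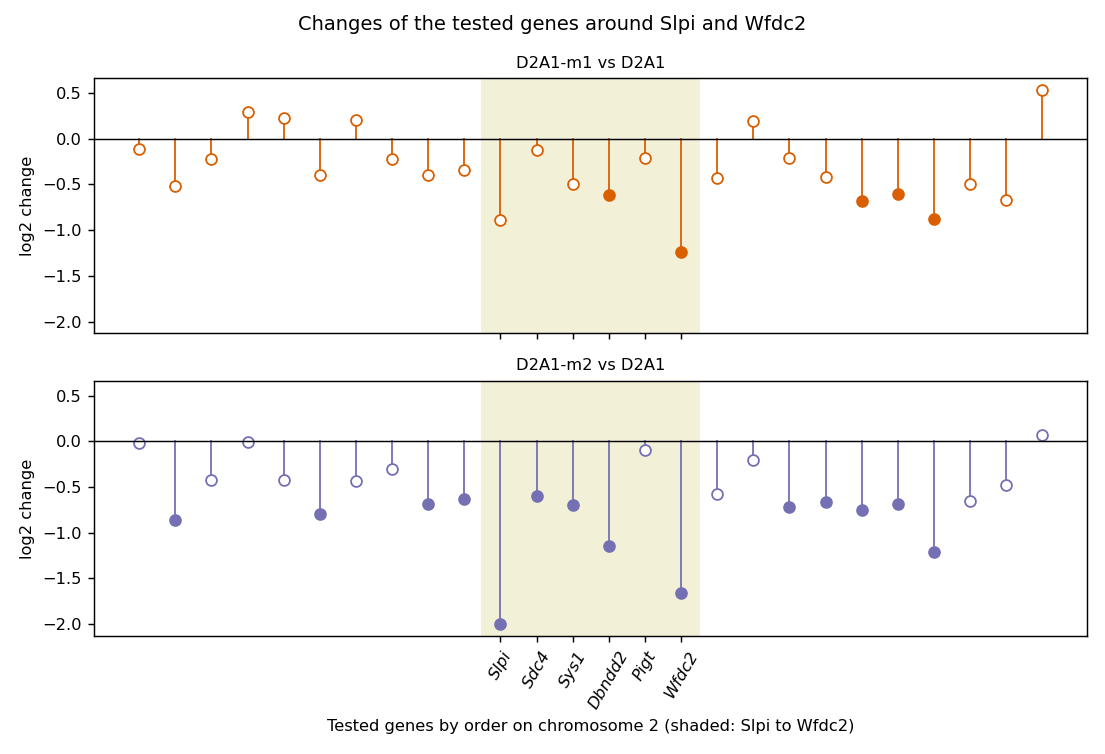
Log2 change against D2A1 (vertical axis) in D2A1-m1 (top) and D2A1-m2 (bottom) of 26 tested genes in their order on chromosome 2. Shading marks Slpi to Wfdc2, and filled points were called. In D2A1-m2, 14 points are filled and all lie below 0, with Slpi and Wfdc2 the lowest.

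Chromosome 2 as a whole was shifted. Its 710 tested genes had a median log2 change against D2A1 of -0.18 for D2A1-m1 and -0.35 for D2A1-m2. The change was negative for 73.4% of them in the first subline and 85.4% in the second. In D2A1-m2, 21.5% of its genes were called lower and 3.1% higher, and in D2A1-m1 9.72% and 3.8%. The median was close to this in either batch. For D2A1-m1 it was -0.18 in batch 1 and -0.19 in batch 2, and for D2A1-m2 it was -0.35 in both. In 14 consecutive blocks of 50 tested genes along the chromosome the median lay between -0.25 and -0.08 in D2A1-m1 and between -0.43 and -0.27 in D2A1-m2, and the last 10 genes had -0.36 and -0.63. Chromosomes 14 and 16 had lower medians still in both sublines, at -0.33 and -0.39 for D2A1-m1 and at -0.36 and -0.42 for D2A1-m2, whereas chromosome 4 had a median of 0.09 in D2A1-m1 and 0.38 in D2A1-m2.

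The changes of both inhibitors were far larger than the median of their chromosome. Among its 710 tested genes Slpi stood at rank 3 from the lowest and Wfdc2 at rank 6 in D2A1-m2, and at ranks 27 and 10 in D2A1-m1. The members were chosen with earlier results of these data known, so these ranks are a description. How much of either change goes with the shift of the chromosome was not tested. Chromosome 5, which holds Csn3, had a median of 0.10 in D2A1-m1 and 0.03 in D2A1-m2. A shift of the stretch around Csn3 was not tested.

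**Figure D5:**
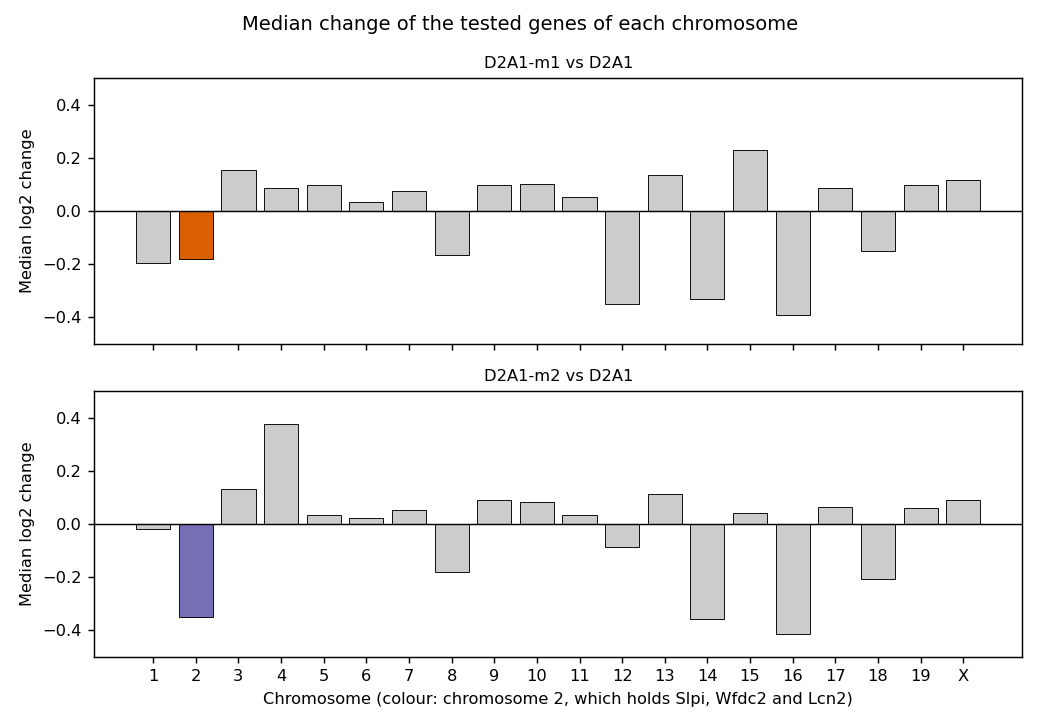
Median log2 change against D2A1 (bars) of the tested genes of each chromosome in D2A1-m1 (top) and D2A1-m2 (bottom). Chromosome 2, in colour, has a median of -0.18 in D2A1-m1 and -0.35 in D2A1-m2.

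The other milk proteins that were called were higher in the sublines. Of 17 genes of this list, 15 had a probe and 3 were tested, with Csn1s2a, Csn1s2b, Glycam1 and Ltf among the 12 undetected. In D2A1-m1 all 3 were called higher, and in D2A1-m2 2 were. Beside this and the following lists, 7.72% of all tested genes were called higher in D2A1-m1 and 6.84% lower. In D2A1-m2 the shares were 8.87% and 7.34%. Counts of a few genes describe each list and no more. The membrane mucin Muc1 rose by 1.2 in D2A1-m1 (adjusted p = 0.00155) and by 0.72 in D2A1-m2 (adjusted p = 0.01). Xdh, encoding the xanthine oxidoreductase that partners Btn1a1, was at least 1.44-fold higher in D2A1-m1 (adjusted p = 0.00498), and its change of 0.23 in D2A1-m2 did not pass (adjusted p = 0.256). Cd24a, a glycoprotein of the cell surface and of milk fat globules, was at least 1.09-fold higher in D2A1-m1 (adjusted p = 0.0176). It was also called in D2A1-m2, with a log2 change of 0.67, but no D2A1 array detected it and the bound came to under 1-fold, so no fold is given. Leaving out 1 array at a time, the Muc1 call in D2A1-m2 was lost without D2A1 replicate 1, D2A1 replicate 2 or D2A1-m2 replicate 1 (0.27 to 0.47), that of Xdh without D2A1-m1 replicate 2 (0.72) and that of Cd24a in D2A1-m1 without D2A1-m1 replicate 1 (0.55). In D2A1-m2 that of Cd24a was lost without D2A1 replicate 3 or D2A1-m2 replicates 1 or 2 (0.52 to 0.79). On the authors' processed values none of the calls of Muc1, Xdh and Cd24a remained in either subline. Without background correction only that of Muc1 in D2A1-m1 remained. Muc1 was detected on 1 of 3 D2A1 arrays, and over the alternatives its log2 change in D2A1-m1 went down to 0.32.

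Of 16 genes of the prolactin and STAT5 pathway, 15 had a probe and 11 were tested. In D2A1-m1 3 were called higher and 1 lower, and in D2A1-m2 3 higher and 3 lower, with median changes of 0.02 and -0.18. Elf5, the alveolar transcription factor, Stat5b and the glucocorticoid receptor gene Nr3c1 were undetected on all arrays. The annotation used names no probe for Prlr, the prolactin receptor gene, so its level was not read. Socs2, an inhibitor of this signalling that STAT5 induces, fell by 1.14 in D2A1-m1 (adjusted p = 0.0173) and by 1.61 in D2A1-m2 (adjusted p = 0.00204). Socs3, which answers mainly to STAT3, rose by 1.52 in D2A1-m1 (adjusted p = 0.00287) and by 0.73 in D2A1-m2 (adjusted p = 0.0393). Id2, an inhibitor of basic helix-loop-helix factors needed for lactation in mice, was at least 1.5-fold higher in D2A1-m1 (adjusted p = 0.00426) and 1.86-fold or more in D2A1-m2 (adjusted p = 0.000686). Nfib, a transcription factor that binds milk gene promoters, rose by 0.64 in D2A1-m1 (adjusted p = 0.0112) and by 1.00 in D2A1-m2 (adjusted p = 0.00073). Stat5a and Cebpb were the other genes called lower in D2A1-m2, at -0.75 (adjusted p = 0.0224) and -0.69 (adjusted p = 0.00401), and are named after their values were seen. Several of these calls were lost when 1 array was left out. In D2A1-m1 those of Socs2 (-1.35 to -0.76) and Nfib (0.46 to 0.67) were lost without D2A1 replicate 3 or either D2A1-m1 array, and that of Id2 without D2A1-m1 replicate 1 (0.92). In D2A1-m2 that of Socs3 was lost without any 1 array other than D2A1 replicate 1 (0.49 to 0.83). That of Stat5a was lost without D2A1 replicate 2 or D2A1-m2 replicates 1 or 3 (-0.77 to -0.54), and also without background correction. On the authors' processed values the calls of Stat5a, Cebpb and Socs3 in D2A1-m2 and of Socs2 and Nfib in D2A1-m1 were lost.

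In milk fat synthesis and secretion, 12 of 21 genes were tested, with 2 called higher in D2A1-m1, 1 higher in D2A1-m2 and 0 lower in either. With 7.72% and 8.87% of all tested genes called higher, such counts are no result about the pathway. Srebf1, the transcription factor of lipid synthesis, rose by 0.72 in D2A1-m1 (adjusted p = 0.012), and Plin2, the coat protein of cytoplasmic lipid droplets, rose by 1.21 in D2A1-m2 (adjusted p = 0.000505). For lactose synthesis, 5 of 7 genes were tested, with 2 called higher in D2A1-m1 and 1 in D2A1-m2. Hexokinase 1 (Hk1) rose by 0.74 in D2A1-m1 (adjusted p = 0.00637) and 0.83 in D2A1-m2 (adjusted p = 0.00204), and the UDP-galactose transporter Slc35a2 rose by 0.73 in D2A1-m1 (adjusted p = 0.00339). The Hk1 call was lost in both sublines without D2A1 replicate 1 (0.08 in D2A1-m1 and 0.23 in D2A1-m2) or D2A1 replicate 2 (0.15 and 0.29). In D2A1-m1 it was also lost without either D2A1-m1 array (0.64 and 0.85). The probe was chosen anew in each of these fits, so the low values without D2A1 replicate 1 or 2 may come from another Hk1 probe. Those low values alone do not show that the call depends on these D2A1 arrays. The calls of Srebf1 and Slc35a2 were lost without D2A1-m1 replicate 1 (0.79 and 0.70), and that of Srebf1 also without D2A1-m1 replicate 2 (0.66) or D2A1 replicate 3 (0.65). On the authors' processed values none of the calls of Hk1, Srebf1 and Slc35a2 remained. Without background correction those of Hk1 and Srebf1 were lost. Hk1 and Slc35a2 serve general metabolism as well as lactose.

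Among 12 further inhibitors with whey acidic protein or Kunitz domains, 11 had a probe and only Spint1 and Spint2 were tested. Spint2, a membrane inhibitor of trypsin-like proteases, was called lower in D2A1-m2, at least 1.05-fold (adjusted p = 0.0153), and was undetected in both sublines. Of the acute-phase and NF-kB genes that are known to move with Lcn2 and Slpi in inflammation, 8 of 18 were tested, with 1 called lower in D2A1-m1 and 2 lower in D2A1-m2. S100a8, a calcium-binding alarmin, fell by 2.1 in D2A1-m1 (adjusted p = 0.00474) and by 2.98 in D2A1-m2 (adjusted p = 0.000453), and the neutrophil chemokine Cxcl1 fell by 1.35 in D2A1-m2 (adjusted p = 0.00199). Saa1, Saa2, Saa3, S100a9 and Ltf were undetected on every array. Of 10 binding partners of Lcn2, Slpi and Mfge8, 6 were tested, and Anxa2, which binds Slpi in human macrophages, rose by 1.11 in D2A1-m1 (adjusted p = 0.000331) and 1.06 in D2A1-m2 (adjusted p = 0.000271). This rested on the probe used, since another Anxa2 probe, of highest mean, gave 0.40 in D2A1-m1 and 0.36 in D2A1-m2, both under 1.5-fold. The call of Spint2 was lost without D2A1 replicate 3 or D2A1-m2 replicates 1 or 2 (-0.94 to -0.58), and that of S100a8 in D2A1-m1 without D2A1-m1 replicate 1 (-2.25). That of Spint2 was also lost without background correction and on the authors' processed values.

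Slpi and Lcn2 are products of neutrophils and macrophages too, so markers of those cells were read beside them. Of 9 neutrophil markers 8 were undetected on all arrays, Ptprc, Elane, Mpo and Csf3r among them, and S100a8 was detected. Their summed background-corrected intensity was 98.2 to 116.8 in D2A1-m1, 70.42 to 93.61 in D2A1-m2 and 173.5 to 473 in D2A1. Of 7 macrophage markers with a probe, Ptprc, Csf1r, Adgre1 and Lyz2 were undetected, and the sums were 426.9 to 744 in D2A1-m1, 333.5 to 462 in D2A1-m2 and 144.2 to 303.6 in D2A1. The detected markers differed among themselves. Coro1a was called higher in both sublines, and Cd14 in D2A1-m1 (log2 change 1.28) but not in D2A1-m2 (0.46). Laptm5 was called higher in D2A1-m2 alone and was undetected in D2A1-m1. The part of such cells in the level of Slpi was not tested. The lung epithelial list, which also fits the lungs from which the sublines were recovered, had 1 of 10 markers detected, in D2A1, and the adipocyte list 0 of 5.

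The genes most like each called member were sought by Pearson correlation of the batch-removed log2 intensity over the 8 arrays, given as a description since the arrays share their lines. For Csn3 they were Pinx1 (0.9982), an inhibitor of telomerase, Bora (0.9971), an activator of Aurora A, and the carbonyl reductase gene Cbr1 (0.9951). For Wfdc2 they were Mtpap (0.9967), a mitochondrial poly(A) polymerase, Gpsm1 (0.9967), a G-protein signalling modulator, and Tmem186 (0.9965). For Slpi they were Ncaph (0.9898), a subunit of condensin, Ccdc125 (0.9895) and the phosphatase gene Ppm1f (0.9842). None of these nearest genes is a member, and 207, 260 and 73 of 8775 genes had a correlation over 0.95 with Csn3, Wfdc2 and Slpi. Between the members themselves the correlation was 0.93 for Csn3 with Wfdc2, 0.93 for Wfdc2 with Slpi and 0.76 for Csn3 with Slpi.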

How the data were processed

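The arrays were 1-colour MouseWG-6 v2.0 BeadChips. The authors deposited an intensity per probe and array, neither background-corrected nor normalized, with a detection p-value for each. They also deposited processed values close to a log2 scale. For these the authors dropped undetected probes, used lumi (its version not given in the sources used) for variance stabilisation and robust spline normalization, and took out the batch with ComBat. They served as an alternative.

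Here limma 3.58.1 in R 4.3.3 was run on the intensities, with neqc for background correction (offset 16), quantile normalization and the log2 step. Of 45281 probes, 16462 passed the detection limit of 0.01 on 1 array or more and were kept. The platform annotation names 1 gene for 34885 probes, several for 18 and none for 10378. Each gene was read from its probe of largest interquartile range. All 8 arrays entered 1 fit (lmFit and eBayes) with line and batch. The fit was tested on simulated data. A fold is a bound where the dimmer line did not detect the probe on any array, and then divides the brighter line's mean by, per array, the higher of the lowest detected level and the probe's own.

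The members and the lists were chosen with earlier results of these data known. Besides the members, the text names up to 4 called genes of each list by smallest adjusted p, undetected defining genes, and for each called member the 3 genes of most similar pattern. Genes with no named probe and the entries Ly6a, Cgn, LOC100046616 and LOC100048733 were not analysed here. RefSeq tables gave gene order and promoter sequence. No source used names the build of the files, so array values carry no coordinates. Alternatives covered background correction, offset, detection filter, probe choice, batch, pairing, prior, processed values, the methods' t-test and leaving out each array. Where arrays were left out, normalization, detection filter and choice of probe were repeated, so a value can come from another probe of its gene.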

Additional observations from a re-analysis of the deposited data

Results flagged for a closer look

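The sublines differed from each other in 3 genes of the lists, by the test of D2A1-m1 against D2A1-m2 itself. Of all 9017 tested genes 4.27% were called in this comparison, so a few calls among the lists are no result about them. These 3 genes are named because they were called. Plin2, of lipid droplets, was lower in D2A1-m1 than in D2A1-m2 (log2 change -0.69, standard error 0.16, adjusted p = 0.0386), with mean log2 intensities of 9.15 and 9.80. Laptm5, a lysosomal membrane protein of blood cells used here as a macrophage marker, was at least 1.56-fold lower in D2A1-m1, which did not detect it, than in D2A1-m2, where all 3 arrays did (log2 change -1.58, adjusted p = 0.00164). Bcl3, a nuclear partner of NF-kB, was at least 1.45-fold higher in D2A1-m1 than in D2A1-m2 (log2 change 0.99, adjusted p = 0.0232), and was detected on 1 of 2 D2A1-m1 arrays and 0 of 3 D2A1-m2 arrays. The Bcl3 call was lost under 12 of 22 alternatives, among them without D2A1-m1 replicate 1 (1.24), D2A1-m1 replicate 2 (0.69), D2A1-m2 replicate 2 (1.01) or D2A1-m2 replicate 3 (0.84). The Plin2 call was lost under 12 of 23, among them without any 1 of the D2A1-m1 and D2A1-m2 arrays (-0.78 to -0.55). That of Laptm5 was lost under 4 of 23, none of which left out a single array.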

How the results depend on the processing

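The number of members called was recomputed under 23 alternatives. In D2A1-m1 against D2A1 it was 1 (Csn3) in batch 1 alone and 0 with the methods' t-test on the authors' processed values, both at its limit of p under 0.001 and after Benjamini-Hochberg adjustment, where the lowest adjusted p among the members was 0.113. This t-test was run here in its plain form with equal variances. The study ran its test in other software with a variance setting that the sources do not state, so these counts are not those of the study's own run. That run listed Csn3 (as Csnk), Slpi and Wfdc2 as lower in D2A1-m2, each at p under 0.001. It also listed Csn3 among the genes lower in both sublines. In D2A1-m2 against D2A1 the number of members called here was 0 with the methods' t-test at p under 0.001, but 3 after Benjamini-Hochberg adjustment. With limma on the same processed values it was 2 in D2A1-m1 and 3 in D2A1-m2. Between D2A1-m1 and D2A1-m2 it was 1 (Slpi) without background correction, with an offset of 50, in batch 2 alone, with a random batch effect, and with a replicate block added to the batch. Leaving out 1 array at a time gave 2 to 3 members called in D2A1-m1, 3 to 4 in D2A1-m2 and 0 to 2 between D2A1-m1 and D2A1-m2, the 2 being Csn3 and Slpi without D2A1 replicate 2. The member added in D2A1-m2 was Btn1a1, called higher and not lower, without D2A1-m2 replicate 1 (log2 change 0.67). Its probe was detected only in D2A1-m2 replicate 3.

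Of 342 recomputed log2 changes of members, 313 kept their direction and side of the threshold, 17 newly passed, 9 no longer passed and 3 changed sign. These 3 were Btn1a1 in D2A1-m1 against D2A1 (-0.0352 without D2A1-m1 replicate 1, the other arrays left out giving up to 0.399), Mfge8 in D2A1-m1 against D2A1 (0.11 in batch 1 alone, where the other probe was chosen) and Mfge8 between D2A1-m1 and D2A1-m2 (-0.00639 without D2A1-m1 replicate 1, the others up to 0.177). Csn3 kept its direction throughout, but its log2 change in D2A1-m1 ran from -4.02 to -1.32 and in D2A1-m2 from -3.46 to -1.19, the smallest sizes being those of the authors' processed values. Slpi was called in D2A1-m1 against D2A1 under 7 alternatives. Whether the replicate numbers pair the cultures could not be settled. The deviations of same-numbered arrays from their line means correlated from -0.428 to 0.318 with the batch removed. The correlations ran from -0.296 to 0.709 with it left in, the positive values being pairs of 1 batch. Deviations within a line cancel by construction, so these few correlations cannot show that pairing was absent. With a replicate block in place of the batch, 3 members were called in D2A1-m1, 3 in D2A1-m2 and 0 between the sublines. With the block added to the batch, the log2 change of Slpi was -1.44 in D2A1-m1 (adjusted p = 0.00167) and 0.94 between the sublines (adjusted p = 0.0143). Of 918 recomputed log2 changes of other named genes that were called, in 40 gene and comparison pairs, 252 no longer passed and 0 changed sign. The number of all genes called ran from 0 to 1488 in D2A1-m1, 86 to 1971 in D2A1-m2 and 0 to 661 between them. Signals near the lowest detected one, as for Csn3 in the sublines, Btn1a1 and Lcn2, limit what can be said of their size.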
